A study of Homo sapiens with 42 samples.

Results

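COPB2 was knocked down in growing human fibroblasts, and the 9 libraries of this experiment are 9 of the 42 in the study. All 9 are IMR90 ER:RAS cells treated with DMSO, the vehicle. They were chosen by their labels: 3 replicates carry COPB2 shRNA #1, 3 carry COPB2 shRNA #2, and 3 carry the control shRNA against which both were compared. The sample titles call it a shRNA control, and its count columns are named shEV. Whether it holds a hairpin or an empty vector was not settled here. IMR90 is a strain of lung fibroblasts. ER:RAS is an oncogenic HRAS fused to a fragment of the oestrogen receptor, delivered by a retroviral vector, which stays inactive until 4-hydroxytamoxifen (4OHT) is given. These cells received none, so they did not undergo oncogene-induced senescence. Cells of every group, control included, were cultured for 7 days, then given doxycycline at 1 µg/ml for 72 h to switch on the shRNA, and RNA was collected at day 10. The genotype label gives the control as WT and the knockdowns as a knockdown of COPI, and lists no other allele. Neither the number of transduced cell pools nor whether replicates come from separate cultures is given in the labels, so the p-values below measure the spread between these samples only.

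COPB2 encodes β′-COP, 1 of the subunits of coatomer. This protein complex coats COPI vesicles, which carry proteins from the Golgi back to the ER (the endoplasmic reticulum) and also between Golgi cisternae. When folding in the ER is disturbed, the unfolded protein response (UPR) is set off through the sensors PERK, IRE1 and ATF6. PERK phosphorylates the translation factor eIF2α, as do other kinases that sense a lack of amino acids, viral RNA or a lack of haem, and the mRNA of the transcription factor ATF4 is then translated better. ATF4 switches on genes for amino acid uptake, serine and proline synthesis and transfer RNA charging, together with DDIT3 (also called CHOP) and TRIB3. ATF6 and the spliced form of XBP1 act mainly on chaperones and on the degradation of misfolded proteins. Dividing fibroblasts transcribe replication genes around S phase and mitotic genes around G2 and M, so that these mRNAs are a measure of the cycling share of a culture.

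The guide strands are shown because both knockdowns rest on them. The labels number the shRNAs and so does the oligonucleotide list of the study, and guide and label were matched by that number alone. Capitals mark the seed, bases 2 to 8 from the 5′ end of the guide, and in the target sites the bases that pair with it.
COPB2 shRNA 1 guide: tTAAATATctttacaatgctgt
COPB2 shRNA 1 site: acagcattgtaaagATATTTAa
COPB2 shRNA 2 guide: tAATTGAAcactctaatctgca
COPB2 shRNA 2 site: tgcagattagagtgTTCAATTa
The guides are 22 bases long and share no seed. The site of shRNA 1 lies at chr3:139088345-139088366 on the minus strand of GRCh37, in coding exon 11 of 22 of transcript ENST00000333188 (bases 1323 to 1344 of 3275). That of shRNA 2 lies at chr3:139097987-139098008 in coding exon 4, bases 333 to 354. The annotation holds 18 COPB2 transcripts, of which 11 carry the first site and 15 the second.

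The libraries held 13148194 to 19502813 counts, the shallowest being replicate 1 of shRNA 2, and a floor of 3 counts stood for 0.154 to 0.228 CPM, in this paragraph counts over the library total. Intervals and floors cover counting error only. The fusion was seen in the reads, on the same scale: HRAS had 2896 to 4112 CPM in the 9 libraries against 32.2 to 47.7 in IMR90 cells with the control shRNA, and ESR1 had 1618 to 2214 against 0 to 0.0561. The 11 fibroblast markers summed to 19784 to 22744 CPM with the control, 18390 to 21737 with shRNA 1 and 21662 to 23567 with shRNA 2. Summed levels of 8 epithelial markers (108 to 183 CPM), 6 endothelial (14.3 to 28.3) and 7 immune (18.99 to 40.5) overlapped between the groups, and KRT5, SFTPC, SCGB1A1, CDH5 and CD3E had no count in any of the 9. Libraries differed most by the base composition of their transcripts. The first principal component carried 82.5% of the variance, and its loadings followed transcript GC content across 13172 genes (Spearman 0.852, where genes are not independent replicates). The level of 2082 genes of at least 60% GC minus that of 2217 genes of at most 40% GC, on the log2 scale, was -0.52, 1.21 and -1.22 in control replicates 1 to 3, 0.26, 1.15 and -1.54 with shRNA 1, and 1.34, 0.65 and -1.33 with shRNA 2. The replicates numbered 2 were GC-rich and those numbered 3 GC-poor in all 3 groups, while those numbered 1 lay on different sides. Values corrected for GC content and transcript length, a correction chosen after this was seen, are therefore given beside the counted ones. A principal component is no test, and what made the libraries differ in composition was not tested.

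The first question was how far the target fell. COPB2 (ENSG00000184432, chromosome 3, 139072788 to 139108578 on GRCh37) had 313, 238 and 416 CPM, from here on relative to the TMM-scaled total, in the control libraries, 40.2, 30.3 and 56.6 CPM with shRNA 1, and 41.01, 38.7 and 63.6 CPM with shRNA 2. All 6 knockdown libraries lay far below all 3 controls, and the 2 shRNAs overlapped each other. It fell by 2.93 on the log2 scale with shRNA 1 (SE 0.31, adjusted p 0.00169) and by 2.75 with shRNA 2 (SE 0.31, adjusted p 0.00341) in edgeR's quasi-likelihood test with Benjamini-Hochberg adjustment over 14297 genes. Averaged over both shRNAs, COPB2 fell by 2.84 (SE 0.24, adjusted p 9.07e-05 in the same test). Much of the spread between replicates followed GC content: after the correction the control libraries had 275, 300 and 306 CPM, the knockdown libraries 37.6 to 48.5 CPM, and the log2 fold change was -2.81 with an SE of 0.08.

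COPB1 encodes β-COP, a subunit of the part of coatomer that resembles clathrin adaptors. It had 223, 115 and 333 CPM with the control, 241, 174 and 462 CPM with shRNA 1, and 136, 220 and 469 CPM with shRNA 2. Groups overlapped, and the log2 fold changes of 0.39 with shRNA 1 and 0.30 with shRNA 2 did not pass the test (mean of both 0.34, SE 0.47, adjusted p 1.00 by edgeR). Corrected for GC content and length, the control libraries had 183, 184 and 197 CPM and the knockdown libraries 217 to 286 CPM. They no longer overlapped, with a difference of 0.47 on the log2 scale (SE 0.10), although the adjusted p of 0.404 (edgeR) still missed the threshold. COPB1 shares part of its locus with another gene on the same strand, which can take some of its reads. The other 7 subunits (COPA, COPG1, COPG2, COPZ1, COPZ2, ARCN1 and COPE) had log2 fold changes from -0.02 to 0.19 as counted and from 0.01 to 0.16 after correction. The highest among them as counted were ARCN1 at 0.19 (SE 0.29) and COPG1 at 0.18 (SE 0.19).

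**Figure D1:**
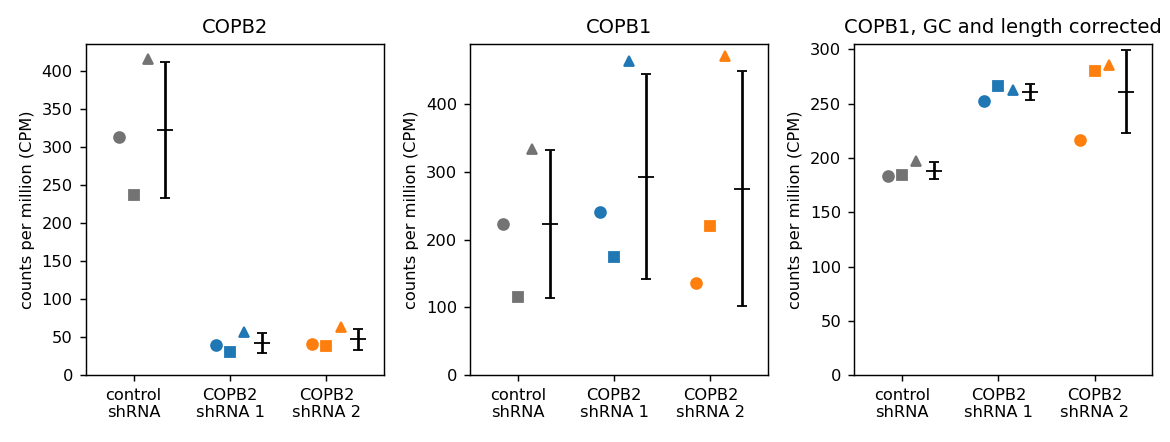
Levels of COPB2, of COPB1 and of COPB1 after correction for GC content and length, in CPM, in the 9 libraries. Circles, squares and triangles are replicates 1, 2 and 3, and bars are the mean ± SD of 3 libraries. COPB2 sat at 30.3 to 63.6 CPM in the 6 knockdown libraries and at 238 to 416 in the controls, and COPB1 separated from the controls after correction only.

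Few other genes passed a test. COPB2 was the single call with either shRNA (0.00699% of 14297 genes tested with shRNA 1, and 0.00699% with shRNA 2), while 116 genes with the first and 133 with the second had an unadjusted p under 0.05. Averaging both shRNAs, which uses 6 knockdown libraries, gave 2 calls (0.0140%) and 137 genes at an unadjusted p under 0.05. By chance alone a share of about 0.05 of the genes would do so, more than was seen. The test was thus strict here, and few calls do not show that the response was small. After the correction 338, 449 and 442 of 13693 genes had such a p with shRNA 1, shRNA 2 and the mean, still below that share. DESeq2's Wald test gave 4 calls, COPB2, WNT7B, INHBE and MFSD2A.

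The other gene called by edgeR was WNT7B, a secreted WNT ligand. It had 12, 11 and 12 counts in the control libraries, 3, 2 and 4 counts with shRNA 1, and 2, 2 and 3 counts with shRNA 2. All knockdown libraries were below all controls, but mostly at or under the floor of 3 counts. Summed over libraries and set against depth, 16 counts against 35 gave a ratio of 0.241 (95% interval 0.124 to 0.446, counting error only), and WNT7B fell by 2.04 on the log2 scale in the fit (SE 0.19, adjusted p 0.00356). The gene had 706 to 1073 counts in 4OHT-treated cells, which share the fit. With the 9 DMSO libraries alone the adjusted p was 0.5256, and it was 0.0564 without control replicate 1 and 0.0815 without control replicate 2 (edgeR).

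Because single genes rarely passed the test, genes were also described by whether the groups overlapped. Of the 10508 genes whose higher group averaged 100 counts or more, 59 (0.561%) lay above all 3 controls in all 6 knockdown libraries and 39 (0.371%) lay below. Over all levels the counts were 92 (0.643%) and 79 (0.553%) of 14297. After the correction they were 171 (1.25%) and 221 (1.61%) of 13693 genes with a known GC content. A single control library weighs on such counts, which went from 98 to 546 genes without control replicate 2 and to 244 without control replicate 1. Both shRNAs are compared with the same 3 control libraries, so a gene that was low in these by chance is high with both. The 12 highest of the 59 by the smaller of both log2 fold changes were INHBE, MFSD2A, PCK2, SLC7A5, ADM2, PSAT1, SLC6A9, SLC7A1, SLC2A12, CHAC1, TRIB3 and FADS1. Of these, 7 are on the list of the PERK and ATF4 arm, namely INHBE, PCK2, SLC7A5, PSAT1, SLC7A1, CHAC1 and TRIB3.

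The PERK and ATF4 arm was the list with the highest median, although none of its genes passed the test in edgeR as counted or after the GC and length correction. The lists were chosen with earlier results of these data known, so the rank and the counts below describe the list and are no test. Of its 40 genes 38 were tested, and CBS and FGF21 were not expressed enough. With the mean of both shRNAs 36 of 38 were above the control, where 49.3% of all genes were, and 34 were above it with each shRNA, where 33.1% of all genes were. The median log2 fold change was 0.40 (0.28 with shRNA 1 and 0.50 with shRNA 2) against -0.002 over all genes tested. An unadjusted p under 0.05 was reached upwards by 11 of the 38, against 71 of all 14297 genes (0.497%), and downwards by none. DESeq2 called 1 of them, INHBE. The 6 knockdown libraries lay above the controls for 9 of the 38 genes (0.643% of all genes), and for 18 after correction (1.25% of all genes).

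Averaged over the 38 genes, the level relative to the control mean was 0.01, -0.01 and 0.01 in the control libraries, 0.24, 0.23 and 0.44 on the log2 scale with shRNA 1, and 0.47, 0.48 and 0.67 with shRNA 2. The controls, at -0.52, 1.21 and -1.22 on the GC scale, were nearly equal. Every knockdown library lay above them, those of shRNA 2 above those of shRNA 1. Within each shRNA the GC-poor replicate 3 was the highest, at 0.44 and 0.67. Whether base composition adds to the difference was not tested. After the correction the knockdown values were 0.23 to 0.71, again with no overlap. The median stayed between 0.33 and 0.52 whichever library was left out.

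**Figure D2:**
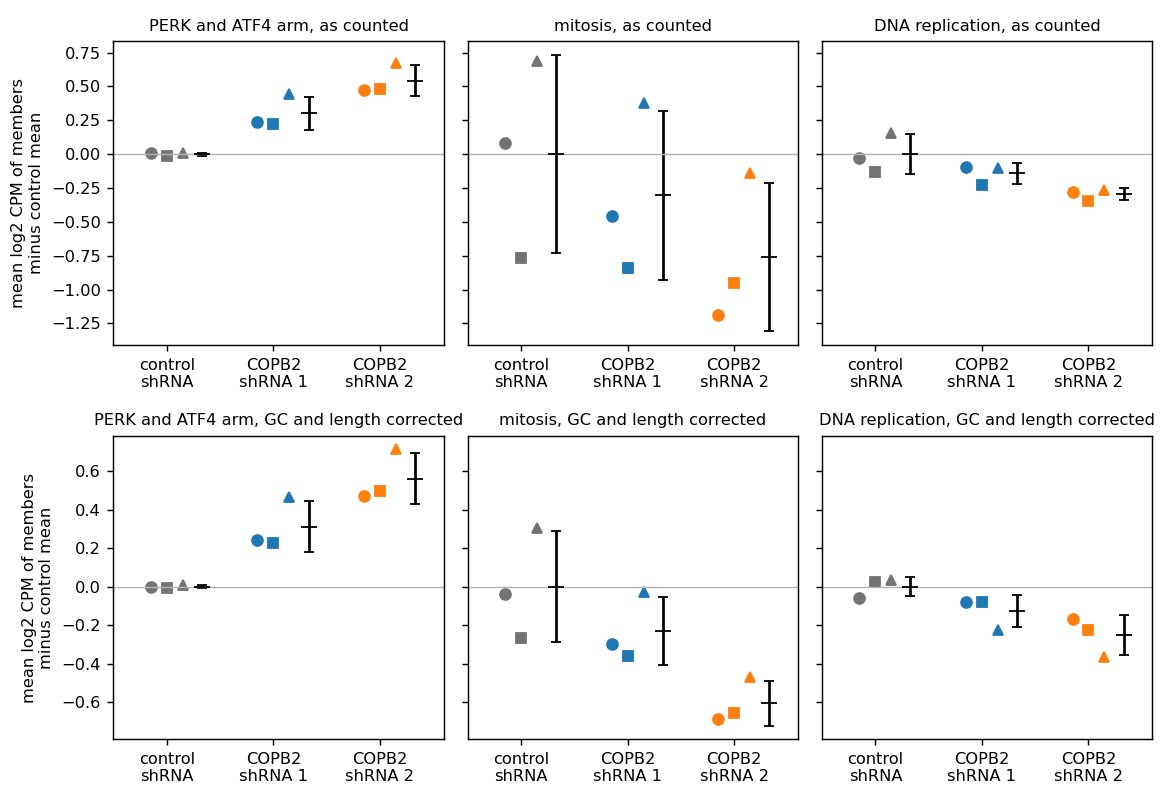
Mean log2 CPM of the members of 3 gene lists minus the mean of the control libraries, as counted (upper row) and corrected for GC content and length (lower row). Circles, squares and triangles are replicates 1, 2 and 3, and bars are mean ± SD of 3 libraries. The PERK and ATF4 arm separated the groups in both rows, whereas mitosis genes spanned -0.77 to 0.69 in the controls before correction.

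INHBE, the βE subunit of activins and inhibins, had the largest log2 fold change of the list. It had 1.11, 1.86 and 1.13 CPM in the control libraries, 2.83, 4.00 and 5.76 with shRNA 1, and 5.79, 5.52 and 8.42 with shRNA 2. Groups did not overlap, at a log2 fold change of 1.94 (SE 0.43). Its adjusted p was 1.00 by edgeR and 0.00575 by DESeq2's Wald test. MFSD2A, which carries lysophosphatidylcholine into cells and is on none of the lists, had 2.66, 2.26 and 2.97 CPM with the control, 3.64, 7.17 and 4.97 with shRNA 1, and 7.03, 7.06 and 8.83 with shRNA 2. Its log2 fold change was 1.27 (SE 0.21), with an adjusted p of 0.127 by edgeR and 0.000101 by DESeq2. Another gene on the same strand overlaps it.

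Amino acid carriers and enzymes followed. SLC7A5, the light chain of the LAT1 carrier for large neutral amino acids, had 43.1, 51.9 and 41.3 CPM with the control, 68.6, 82.5 and 79.3 with shRNA 1, and 99.7, 90.6 and 96.9 with shRNA 2. The 3 groups did not overlap one another, at a log2 fold change of 0.92 (SE 0.20). PCK2, the mitochondrial phosphoenolpyruvate carboxykinase, had 24.9, 28.4 and 21.9 CPM with the control, 42.5, 48.9 and 38.1 with shRNA 1, and 62.4, 59.4 and 51.9 with shRNA 2. Here too the groups came out in the order control, shRNA 1, shRNA 2 without overlap, at a log2 fold change of 1.00 (SE 0.35). PSAT1, an enzyme of serine synthesis, had 50.8 to 57.1 CPM with the control and 78.1 to 139 CPM in the knockdown libraries (log2 fold change 0.85, SE 0.35). SLC7A1, which imports arginine and lysine, differed by 0.71 (SE 0.23), and the glycine carrier SLC6A9 by 0.89 (SE 0.33), both without overlap. ADM2, a secreted peptide hormone of the calcitonin family, differed by 0.86 (SE 0.34), with 9.54 to 14.4 CPM in the controls and 19.5 to 27.1 in the knockdown libraries. None of these passed the test after adjustment in the main fit (adjusted p 1.00 in each, edgeR). One alternative took the replicate number as a block and corrected for GC content and length, on the 9 DMSO libraries. There SLC7A5 (adjusted p 0.00819), PCK2 (0.0158) and SLC6A9 (0.0418) passed by edgeR. PSAT1, SLC7A1 and ADM2 passed in no setting run.

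Of the regulators in the arm, TRIB3, a pseudokinase induced by ATF4 that dampens it, had 40.5, 52.99 and 38.0005 CPM with the control, 56.0, 74.6 and 56.8 with shRNA 1, and 97.8, 98.2 and 79.3 with shRNA 2. The lowest knockdown library stood just above the highest control, and the log2 fold change was 0.79 (SE 0.24). CHAC1, which breaks down glutathione, had 15.4, 15.8 and 16.5 CPM with the control and 20.5 to 30.9 CPM in the knockdown libraries, at 0.69 (SE 0.26). DDIT4, an inhibitor of mTORC1, differed by 0.51 (SE 0.23) and the secreted glycoprotein gene STC2 by 0.42 (SE 0.22), both without overlap. ATF4 itself had 266, 286 and 317 CPM with the control, 302, 338 and 313 with shRNA 1, and 404, 389 and 373 with shRNA 2, a log2 fold change of 0.28 (SE 0.20). Its mRNA overlapped between control and shRNA 1. DDIT3, the CHOP gene, overlapped throughout with 24.0 to 44.3 CPM in the controls and 26.9 to 50.7 CPM in the knockdown libraries, at 0.22 (SE 0.31). The members furthest below the control were the amino acid carrier SLC38A2 at -0.13 and CEBPB, which encodes a transcription factor, at -0.09. ASNS, asparagine synthetase, had a log2 fold change of 1.19 (SE 0.59) but under 0.5 CPM in each control library, and a gene on the same strand overlaps it.

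**Figure D3:**
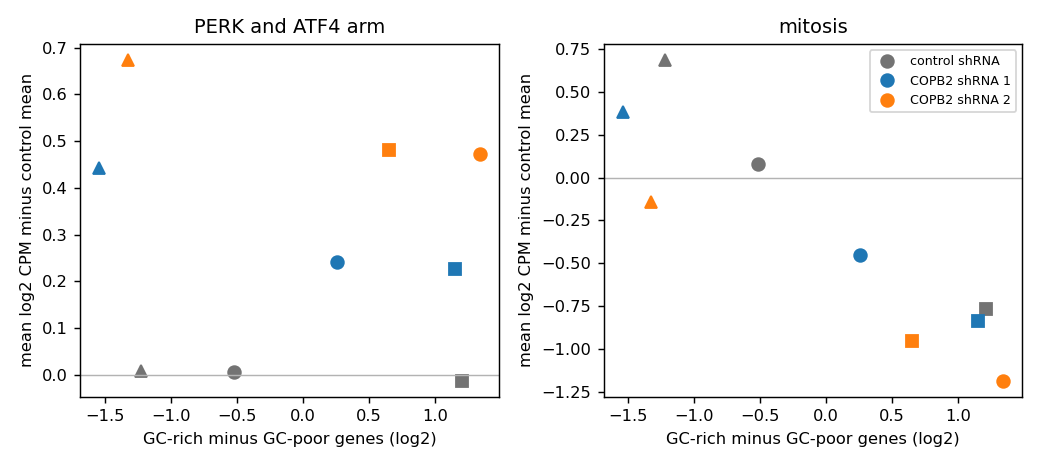
List level in each library (mean log2 CPM minus the control mean) against the level of GC-rich minus GC-poor genes, with circles, squares and triangles for replicates 1, 2 and 3. For the PERK and ATF4 arm every knockdown library lay above every control, though no control lay between -0.52 and 1.21 on the axis. The mitosis level was 0.69 in the GC-poor and -0.77 in the GC-rich control library.

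The promoters of the ATF4 arm were also searched for a motif. The list was made up of genes of the ATF4 response, so the share with a match describes the list and not the knockdown. The search used RefSeq promoters of build GRCh38.p14, from 250 bases before to 50 after the start, on both strands. The C/EBP-ATF response element, written TGATGNAA, which ATF4 binds with C/EBP partners, was found in 8 of the 30 members with a promoter entry (26.7%). It was in 1.76% of the promoters of 11081 genes tested and in 3.67% of all 27305 promoters. The members with a match were ATF3, CHAC1, ASNS, SLC3A2, SLC7A1, CARS1, NARS1 and AARS1. Of the members named above as without overlap, only CHAC1 and SLC7A1 are among these. A match describes letters and not binding. The CHAC1 promoter is shown for its match, in capitals, which starts 209 bases before the start and reads on the opposite strand. It lies at chr15:40953221-40953470 on the plus strand of GRCh38.p14.
CHAC1 promoter: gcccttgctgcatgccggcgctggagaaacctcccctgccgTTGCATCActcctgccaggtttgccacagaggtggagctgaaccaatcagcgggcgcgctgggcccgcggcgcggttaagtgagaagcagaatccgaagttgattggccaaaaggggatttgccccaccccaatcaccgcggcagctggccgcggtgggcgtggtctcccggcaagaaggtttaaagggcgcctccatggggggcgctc

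The arm driven by ATF6 and XBP1 stayed near the median of all genes. Its 37 genes had a median log2 fold change of 0.01, and 20 of them were above the control. HSPA5, the ER chaperone BiP, had 831, 785 and 1106 CPM with the control, 833, 796 and 990 with shRNA 1, and 980, 715 and 1177 with shRNA 2. These overlapped, with a log2 fold change of 0.01 (SE 0.30) that turned to -0.03 after the correction. XBP1 stood at 0.02 (SE 0.23), and HSP90B1, the ER chaperone GRP94, at -0.36. HERPUD1, a component of ER-associated degradation that both ATF4 and ATF6 can induce, was the 1 member of 37 without overlap (0.643% of all genes lay above all controls). It had 97.1, 109 and 114 CPM with the control, 121, 132 and 138 with shRNA 1, and 161, 124 and 168 with shRNA 2 (log2 fold change 0.40, SE 0.18, adjusted p 1.00 by edgeR). Other genes overlap it on its strand. One member reached an unadjusted p under 0.05, upwards, and DESeq2 called none. Of the CREB3 family, transcription factors processed at the Golgi, 4 of 5 were tested and all 4 had values above the control (median 0.15, or 0.046 without control replicate 3 and 0.35 without control replicate 2, from CREB3L1 at 0.10 to CREB3L4 at 0.20).

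The next question was whether growing cells with less COPB2 held less mRNA of proliferation genes. Mitosis genes were lower with the mean of both shRNAs in 54 of 55 (50.4% of all genes were), and lower with each shRNA in 46 of 55 (34.4% of all genes were). The median was -0.46, made up of -0.27 with shRNA 1 and -0.68 with shRNA 2. None passed the test in edgeR or DESeq2, and 4 had an unadjusted p under 0.05, all 4 downwards, against 66 of all 14297 genes (0.462%). In bulk RNA, fewer cycling cells and less mRNA per cell cannot be told apart.

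The values by library show how uneven this was. The mitosis level was 0.08, -0.77 and 0.69 in the control libraries, -0.45, -0.84 and 0.38 with shRNA 1, and -1.19, -0.95 and -0.14 with shRNA 2, on the log2 scale relative to the control mean. The groups overlapped, and the level was lowest in the GC-rich replicates 2 and highest in the GC-poor replicates 3 of control and shRNA 1. With the correction the controls were at -0.04, -0.27 and 0.31, shRNA 1 at -0.30, -0.36 and -0.03, and shRNA 2 at -0.69, -0.66 and -0.47. The 3 libraries of shRNA 2 then lay below all controls, and those of shRNA 1 did not. The median of all 55 genes was -0.45 after correction, -0.20 without control replicate 3 and -0.77 without control replicate 2.

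Named mitosis genes showed the same spread. MKI67, which encodes the Ki-67 antigen of cycling cells, had 9.13, 3.38 and 8.45 CPM with the control, 6.28, 2.72 and 11.7 with shRNA 1, and 2.32, 2.55 and 7.26 with shRNA 2. The groups overlapped, at -0.40 (SE 0.46). TOP2A, a topoisomerase that untangles chromosomes before they part, had 20.5, 8.17 and 40.4 CPM with the control, 14.6, 8.17 and 33.6 with shRNA 1, and 4.32, 7.49 and 20.3 with shRNA 2. It too overlapped, at -0.70 (SE 0.70), and after correction shRNA 2 was at 8.09 to 10.6 CPM against 14.2 to 22.9 in the controls. CDK1, the mitotic kinase, was at -1.18 (SE 0.74) from 0.386 to 10.1 CPM over the 9 libraries. CCNB1 and CCNA2, its cyclins, were at -0.41 (SE 0.18) and -0.75 (SE 0.46). One library weighed heavily on these genes: without control replicate 3, TOP2A was at -0.020, CDK1 at -0.24, MKI67 at -0.25 and CCNA2 at -0.40, and without control replicate 2 they were at -1.10, -1.66, -0.72 and -0.93.

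PTTG1, KIF2C and SPC25 were the 3 of 55 mitosis genes whose knockdown libraries all lay below the controls, where 0.553% of all genes did. PTTG1, which encodes securin, had 9.37, 10.99 and 15.8 CPM with the control, 7.32, 8.50 and 7.57 with shRNA 1, and 9.11, 7.28 and 6.196 with shRNA 2. The gap was narrow, at -0.66 (SE 0.25). KIF2C, a kinesin that takes microtubules apart, had 7.50 to 9.39 CPM with the control and 5.15 to 7.39 in the knockdown libraries, at -0.41 (SE 0.25). After the correction these 3 overlapped, and 5 different genes did not, CCNA2, UBE2C, BIRC5, PLK1 and TPX2 (1.61% of all genes did not). LMNB1, the nuclear lamina gene whose loss marks senescent cells, overlapped at -0.39 (SE 0.29).

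The promoters of mitosis genes shared the cell cycle genes homology region (CHR), written TTTGAA, a motif through which these genes are held down outside G2 and M. It was in 35 of the 47 members with an entry (74.5%), against 9.67% of the promoters of genes tested and 15.4% of all. Here too the share describes the list and not the knockdown. The MKI67 and TOP2A promoters are shown because each holds 2 matches, in capitals. In MKI67 (chr10:128126424-128126673, minus strand) the first starts 47 bases before the start, and in TOP2A (chr17:40417897-40418146, minus strand) 194 bases before.
MKI67 promoter: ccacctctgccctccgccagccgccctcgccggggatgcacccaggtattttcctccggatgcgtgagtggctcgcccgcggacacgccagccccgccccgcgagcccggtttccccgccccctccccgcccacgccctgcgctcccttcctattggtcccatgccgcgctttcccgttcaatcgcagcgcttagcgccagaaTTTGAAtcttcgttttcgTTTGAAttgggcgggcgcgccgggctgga
TOP2A promoter: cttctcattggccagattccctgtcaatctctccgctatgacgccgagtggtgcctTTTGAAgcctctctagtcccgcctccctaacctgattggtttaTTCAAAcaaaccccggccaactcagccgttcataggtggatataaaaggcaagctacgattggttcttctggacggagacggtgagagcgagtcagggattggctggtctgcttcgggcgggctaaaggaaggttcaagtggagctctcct

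DNA replication genes were lower by less. Of 44 genes 37 were below the control, with a median of -0.19 (-0.12 with shRNA 1 and -0.21 with shRNA 2) and 1 unadjusted p under 0.05. Corrected levels were -0.06, 0.02 and 0.03 in the control libraries, -0.08, -0.08 and -0.22 with shRNA 1, and -0.17, -0.22 and -0.37 with shRNA 2. With the correction all knockdown libraries were below all controls, those of shRNA 1 narrowly so. As counted the controls were at -0.03, -0.13 and 0.16, and shRNA 1, at -0.09, -0.23 and -0.10, overlapped them. The libraries of shRNA 2, at -0.28, -0.35 and -0.26, lay below all controls as counted too. TYMS, thymidylate synthase, had 37.9, 31.2 and 41.1 CPM with the control, 30.9, 25.8 and 25.6 with shRNA 1, and 30.7, 20.2 and 26.7 with shRNA 2, a log2 fold change of -0.46 (SE 0.20). RRM2, which makes deoxynucleotides, had 17.4 to 25.4 CPM with the control and 9.61 to 16.999 in the knockdown libraries (-0.50, SE 0.27). TYMS, RRM2 and GINS1, 3 of 44, did not overlap between the groups as counted (0.553% of all genes). After the correction they overlapped, and 3 other members lay below all controls (1.61% of all genes did). The sliding clamp gene PCNA was at -0.26 (SE 0.18) and the helicase subunit gene MCM2 at -0.10 (SE 0.32), both with overlap.

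Genes that hold the cycle back did not pass the test either. CDKN1A, which encodes p21, had 740, 973 and 625 CPM with the control, 682, 814 and 528 with shRNA 1, and 1112, 976 and 654 with shRNA 2. These overlapped, with values below the control for shRNA 1 (-0.21) and above it for shRNA 2 (0.23), and a mean of 0.01 (SE 0.29). CDKN2A, the p16 gene, was at -0.14 (SE 0.39). The 7 CDK inhibitors had a median of -0.04, with 5 below the control, and 24 p53 targets one of -0.09 with 18 below. Of 24 genes for control of G1 to S, 13 were above and the median was 0.04. E2F2, an activating E2F, was the 1 of 24 without overlap downwards, at -0.81 (0.553% of all genes lay below all controls). E2F1 at -0.20 (SE 0.30) and FOXM1, a driver of mitotic transcription, at -0.13 (SE 0.22) overlapped. One G1 to S gene, 0 CDK inhibitors and 0 p53 targets had an unadjusted p under 0.05.

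Lipid and contractile genes leaned one way without passing the test. Of 12 genes of fatty acid synthesis 10 were above the control, with a median of 0.26 as counted and 0.20 after correction. In growing IMR90 cells 7 of 12 were above it (46.5% of all genes were), with a median of 0.04. SCD, the stearoyl-CoA desaturase, had 107, 114 and 110 CPM with the control, 124, 132 and 188 with shRNA 1, and 149, 149 and 221 with shRNA 2, without overlap (0.54, SE 0.20). FADS1, another desaturase, was at 0.49 (SE 0.23) without overlap. These were 2 of the 12 (0.643% of all genes lay above all controls), and after the correction 1 of the 12 did (1.25%). Sterol synthesis had 16 of 24 genes above and a median of 0.13, which was 0.032 without control replicate 1 and 0.27 without control replicate 3. An unadjusted p under 0.05 (edgeR) was reached upwards by 3 of the 24, against 0.497% of all genes, and downwards by 0. Of 13 contractile genes 11 were below (50.4% of all genes were), with a median of -0.25 that was -0.04 without control replicate 2. After the correction 12 were below, with a median of -0.22. Below all controls lay 1 of the 13 as counted (0.553% of all genes) and 4 after the correction (1.61%). In growing IMR90 cells 11 of 13 were below (53.3% of all genes were), with a median of -0.20. ACTG2, smooth muscle γ-actin, had 265, 380 and 323 CPM with the control, 214, 255 and 180 with shRNA 1, and 258, 256 and 216 with shRNA 2, just without overlap (-0.49, SE 0.30).

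Trafficking genes stayed close to the median of all genes, though most lay above the control, where 49.3% of all genes did. Of 15 COPII coat genes 14 were above it with a median of 0.09, of 52 COPI partners and Golgi genes 38 with a median of 0.08, and of 8 COPI subunits other than COPB2 6 with a median of 0.08. COPII genes were above it for 13 of 15 in growing IMR90 cells (46.5% of all genes) and 15 of 15 with 4OHT (38.9%). KDELR2, which returns ER proteins from the Golgi, was the 1 of the 52 without overlap as counted (0.643% of all genes lay above all controls). For 32 lysosome and V-ATPase genes the median was 0.03 (18 above), for 22 autophagy genes 0.01 (11 above) and for 32 collagen and matrix genes 0.03 (18 above). Of 35 genes of the senescence-associated secretory phenotype (SASP) 21 were below, with a median of -0.09 that was 0.02 after correction, and of 23 immediate early genes 14 were below, with a median of -0.08. The 22 interferon response genes stood at a median of 0.04 (12 above), made up of 0.19 with shRNA 1 and -0.14 with shRNA 2. Among them OAS2, an antiviral enzyme gene, was at 1.16 and -0.10, and the difference between the shRNAs was not tested. Over the 20 lists, which leave COPB2 out, no member was called by edgeR's quasi-likelihood test as counted, and DESeq2 called INHBE. By edgeR 22 of the 523 memberships had an unadjusted p under 0.05, against 137 of all 14297 genes. Of the 22, 16 were upwards, with 11 in the PERK and ATF4 arm and 3 in sterol synthesis.

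The 12 lowest genes of the 39 without overlap were COPB2, NOG, GAL, PTTG1, TMEM158, UBE2T, RPLP0P2, TYMS, ACTG2, SCG2, LDHA and MICOS10. TMEM158, a membrane protein gene that RAS signalling induces, had 405, 443 and 455 CPM with the control, 232, 260 and 181 with shRNA 1, and 350, 278 and 243 with shRNA 2. The groups were well apart, at -0.77 (SE 0.25) as counted and -0.75 after correction (adjusted p 0.202, edgeR). NOG, an antagonist of BMPs, had 5.52 to 9.54 CPM with the control and 2.4999 to 4.62 in the knockdown libraries (-0.94, SE 0.30), and GAL, the precursor of the peptide galanin, 9.49 to 12.01 and 2.55 to 9.04 CPM (-0.89, SE 0.32). UBE2T, a ubiquitin-conjugating enzyme of the Fanconi pathway, was at -0.53 (SE 0.16), SCG2, the secretory granule protein secretogranin II, at -0.48 (SE 0.23), and LDHA, lactate dehydrogenase A, at -0.38 (SE 0.23). RPLP0P2 is a pseudogene near to a ribosomal protein gene in sequence, and MICOS10 overlaps other genes on its strand, so the reads of both are uncertain. So are those of LDHA, TMEM158, FADS1, WNT7B, DDIT3, TOP2A and PCNA, each of which overlaps a gene on its own strand.

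Growing IMR90 cells without the fusion offered libraries that the choice of these genes had not used. There 4 replicates per shRNA and 4 controls, again with DMSO, had COPB2 at a log2 fold change of -2.69. Of the 59 genes without overlap upwards in ER:RAS cells, 53 (89.8%) were above the control in IMR90 too, against 44.3% of all 10507 genes compared, and 4 (6.78%) were without overlap there against 0.247%. Their median was 0.14. Of the 39 downwards, 36 (92.3%) were below against 55.7%, with a median of -0.15. The 1 gene of the 39 without overlap in IMR90 (2.56%, against 0.0857% of all genes) was COPB2, the target itself. INHBE was at 1.85 in IMR90, MFSD2A at 0.72, CHAC1 at 0.68, ADM2 at 0.66, PCK2 at 0.65, PSAT1 at 0.63, SLC7A5 at 0.58 and TRIB3 at 0.48, none of them called. In IMR90 34 of 38 genes of the PERK and ATF4 arm were above the control, where 46.5% of all genes were, with a median of 0.23 that was 0.28 without the 3 IMR90 libraries numbered 1. Mitosis genes were below in 48 of 55, where 53.3% of all genes were, with a median of -0.16, and replication genes had a median of -0.05. COPB1 was at 0.51 as counted and 0.43 after correction, at which it passed the test (adjusted p 0.0294, edgeR). TMEM158 was at -0.65, NOG at -0.48 and ACTG2 at -0.42, whereas UBE2T was at 0.20.

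A test of the difference between both lines called no gene (0% of 15299), with 110 genes at an unadjusted p under 0.05 by edgeR, and none with the replicate number as a block, DESeq2 size factors or the correction. DESeq2's Wald test was not run for it. The median difference, ER:RAS minus IMR90, was 0.18 for the PERK and ATF4 arm and -0.27 for mitosis genes, against 0.06 over all genes. The size of the response is thus not shown to differ between the lines.

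**Figure D4:**
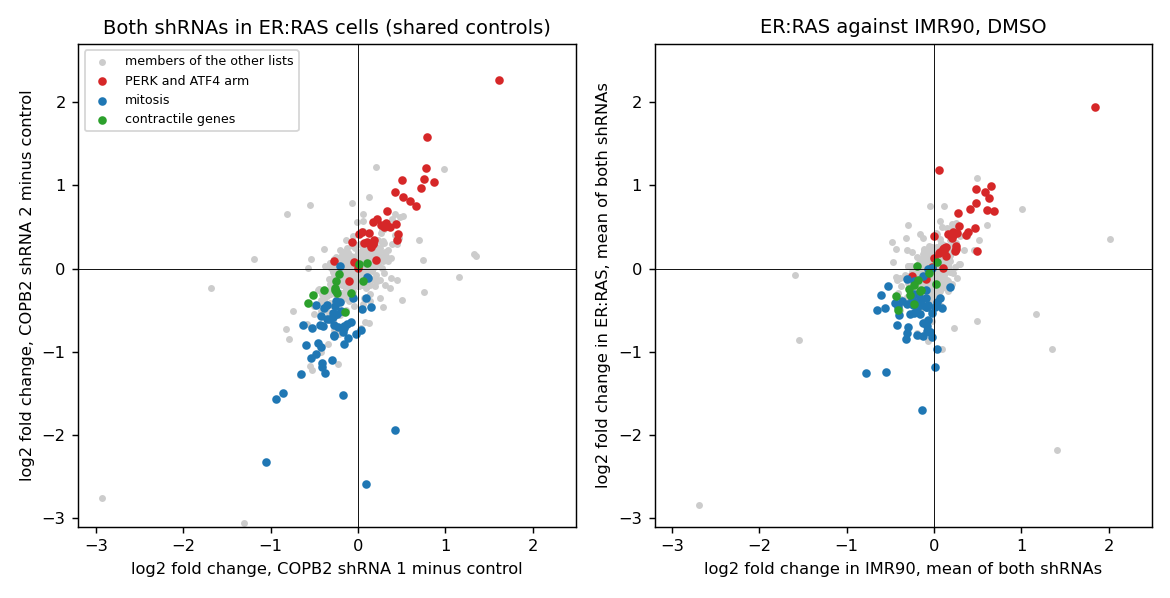
Left, log2 fold changes of the list members with shRNA 1 and shRNA 2 in ER:RAS cells, which share their 3 control libraries. Right, log2 fold changes of the mean of both shRNAs in IMR90 and ER:RAS cells, which share none. Of the PERK and ATF4 arm 36 of 38 lie above 0 in ER:RAS and 34 in IMR90 cells, and of the 55 mitosis genes 54 and 48 lie below.

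The same knockdown in senescent cells was compared with that in growing cells through the 4OHT-treated libraries of the ER:RAS line, in which COPB2 had a log2 fold change of -2.19. There the PERK and ATF4 arm had a median of 0.54, with 34 of 38 genes above the control (38.9% of all genes were), against 0.40 in growing cells. After the correction the medians were 0.66 and 0.36, with 10 members called with 4OHT and 0 in growing cells. Over all 13693 genes that fit called 262 with 4OHT and 2 in growing cells. The ATF6 and XBP1 arm had 0.40 against 0.01, or 0.44 against 0.03 after the correction, with 13 members called with 4OHT and 0 in growing cells. INHBE was at 4.88 with 4OHT and 1.94 without, DDIT3 at 2.54 and 0.22, HSPA5 at 1.85 and 0.01, and HERPUD1 at 1.51 and 0.40. SLC7A5 (0.54 and 0.92), PCK2 (0.66 and 1.00) and TRIB3 (0.53 and 0.79) had the lower value with 4OHT, and no list member passed the test of the difference given next. Mitosis genes had a median of -0.05 with 4OHT against -0.46, replication genes 0.09 against -0.19, SASP genes -0.33 against -0.09, and fatty acid synthesis 0.38 against 0.26. Senescent cells are in a stable cell-cycle arrest, so mitosis and replication genes may have little room to fall with 4OHT. Their levels in the 2 states were not compared, and these medians do not show that an effect was lost.

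Tested as a difference of differences, growing minus 4OHT-treated, 2 genes passed (0.0140% of 14297), with 295 at an unadjusted p under 0.05. TCF19, a gene expressed around the G1 to S transition, was at -0.15 in growing and 2.44 in 4OHT-treated cells (difference -2.60, adjusted p 0.0343, edgeR). METTL7A, a methyltransferase of lipid droplets and the ER, was at 0.24 and -1.85 (difference 2.09, adjusted p 0.0343, edgeR). The differences of DDIT3 (-2.32, adjusted p 0.122), INHBE (-2.94, adjusted p 0.183), HSPA5 (-1.83, adjusted p 0.448) and HERPUD1 (-1.11, adjusted p 0.448) did not pass in this fit. DESeq2's Wald test called 17 genes, among them DDIT3 (adjusted p 0.000288), INHBE (0.000783), HSPA5 (0.0160) and HERPUD1 (0.0449). The correction for GC content and length gave 13, among them ATF3 of the ATF4 arm at -1.61 (adjusted p 0.0299, edgeR) and CDC6, which loads the replicative helicase, at -2.37 (adjusted p 0.00818, edgeR). No gene of any list passed in the fit as counted, and the mitosis median difference was -0.50 against 0.06 over all genes.

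**Figure D5:**
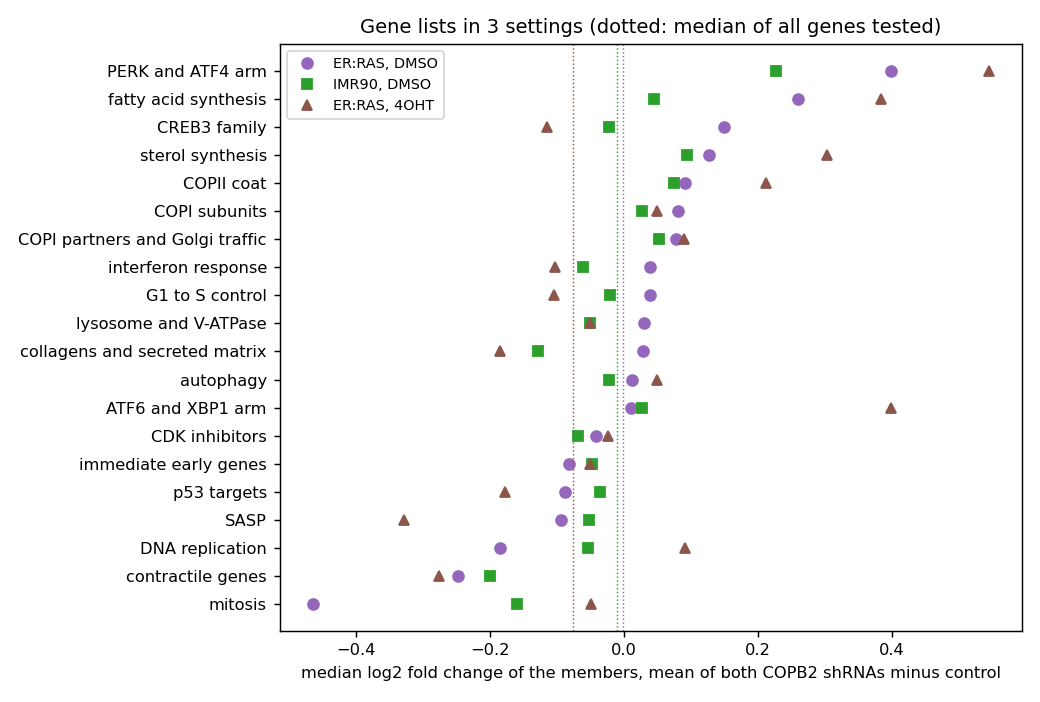
Median log2 fold change of the members of 20 gene lists for the mean of both COPB2 shRNAs against the control, in growing ER:RAS, growing IMR90 and 4OHT-treated ER:RAS cells. Dotted lines are the medians of all genes tested. The PERK and ATF4 arm lies at 0.40, 0.23 and 0.54, and the ATF6 and XBP1 arm at 0.01, 0.03 and 0.40.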

How the data were processed

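The RNA-seq series holds 42 libraries, of which 9 are described here, with IMR90 and 4OHT-treated libraries for comparison. Libraries were made from poly(A) RNA with a directional kit. The authors deposited raw counts per gene symbol (28266 symbols, 3476 without any count). The submitters' processing notes list DRAGEN, STAR 2.7.8a, DESeq2 1.32.0 and hg38, whereas the study's methods name Tophat, HTSeq and hg19, so the build behind the counts is uncertain. Coordinates of COPB2 and the target sites were taken from GENCODE on GRCh37, to which 24723 symbols matched. The counting may have split reads between overlapping genes.

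Genes were filtered with filterByExpr and scaled by TMM, and CPM values use the TMM-scaled total, except for HRAS, ESR1, the summed markers and the floor of 3 counts, which use the library total. The fit was edgeR 4.0.16 (R 4.3.3), a two-sided quasi-likelihood F-test with robust dispersion, 1 mean for each of the 6 ER:RAS groups, on 18 libraries, with Benjamini-Hochberg adjustment and a threshold of 0.05. Cell states were compared in the same fit and cell lines in a fit over all 42 libraries. DESeq2 1.42.0, its size factors, other filters, fewer libraries and a replicate block were alternatives. List levels are means of log2 CPM with a prior count of 2. The correction for composition took each library's natural splines (5 degrees of freedom) on transcript GC content and log length as offsets, leaving out 604 genes without a GC value. The scripts were tested on simulated data.

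Genes were named by rule: the 12 in each direction with the largest smaller log2 fold change of both shRNAs, among genes with groups that did not overlap and an average of 100 counts or more in whichever group was higher, together with listed members. ASNS, CEBPB, OAS2, E2F2, ATF3, CDC6, UBE2C, BIRC5, PLK1 and TPX2 fall outside it and were chosen after their values were seen. The comparison and the 20 lists were chosen with earlier results of these data known. Columns of other series numbered 0. Sequencing depth was 13148194 to 19502813 counts.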

Additional observations from a re-analysis of the deposited data

Results flagged for a closer look

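The effect of COPB2 knockdown differed between growing and 4OHT-treated cells for TCF19, by -2.60 on the log2 scale, and for METTL7A, by 2.09, by the test of the difference itself (adjusted p 0.0343 for each, edgeR). Among groups of 4 IMR90 libraries treated with DMSO, 13 of 153 groups tested had 1 library whose gap to the others passed Dixon's value, which chance gives for about 1 in 20. Groups of 3, as in the ER:RAS line, were not tested.

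Of the 13, most concerned replicates 1. In control replicate 1 the levels were 56.6 CPM for TRIB3 (28.6 to 31.9 in the other 3), 40.3 for PCK2 (23.8 to 26.5), 19.8 for CHAC1 (8.14 to 9.63), 21.5 for ADM2 (10.1 to 11.9), 128 for HERPUD1 (91.4 to 94.4) and 1004 for CDKN1A (388 to 467). With shRNA 1, replicate 1 had 63.7 CPM of TRIB3 (37.7 to 39.8), 5.62 of KIF2C (3.64 to 3.90) and 715 of CDKN1A (354 to 412). With shRNA 2, replicate 1 had 889.9 CPM of CDKN1A (413.6 to 481.9). Control replicate 3 had 304 CPM of STC2 (275 to 278) and 29.6 of DDIT3 (33.03 to 33.5), and replicate 3 of shRNA 1 had 72.9 CPM of COPB2 (47.6 to 50.2). Without the 3 IMR90 libraries numbered 1, the median of the PERK and ATF4 arm in IMR90 was 0.28 and not 0.23.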

How the results depend on the processing

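COPB2 kept its direction in every setting run, but its call did not. With only the 9 DMSO-treated ER:RAS libraries the log2 fold change was -2.92 with shRNA 1 (adjusted p 0.217) and -2.74 with shRNA 2 (adjusted p 0.331), and with the 6 libraries of each pair -2.92 (adjusted p 0.870) and -2.74 (adjusted p 0.760), by edgeR. These fits have fewer samples. Without the 3 libraries numbered 1 it was -2.93 (0.143) and -2.68 (0.310). Leaving out 1 replicate at a time gave -2.99 to -2.53 with shRNA 2, with an adjusted p of 0.0668 without shRNA 2 replicate 2. Genes called with shRNA 1, shRNA 2 and the mean of both numbered 1, 1 and 2, and became 0, 0 and 1 with 9 libraries or without those numbered 1, and 0 and 0 with 6. DESeq2 called 3 with shRNA 2 and 4 with the mean. Leaving out replicates gave 0 to 2 with shRNA 2 and 1 to 3 with the mean, 1 being without control replicate 1 or 2.

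Replicate numbers paired the samples except for control replicate 1. Its deviations correlated at -0.458 and -0.781 with those of the knockdown libraries numbered 1, and the other pairs at 0.698 to 0.975. After the correction for GC content and length the former were -0.114 and -0.511, and the other pairs 0.507 to 0.905. With the replicate number as a block 2 genes were called with shRNA 2, the addition being MFSD2A, and with the block and the correction for GC content and length 2, 9 and 10, or 2, 11 and 18 with 9 libraries. With the mean of both shRNAs, block and correction, the calls held INHBE (adjusted p 0.0231), TRIB3 (0.0187), COPB1 (0.0187) and TCEA1 (0.0145), and with 9 libraries also PCK2 (0.0158), SLC7A5 (0.00819), PHGDH (0.00819) and SHMT2 (0.0359), though then not COPB1 or TCEA1 (edgeR). The median of the PERK and ATF4 arm was 0.37 with the block, 0.36 with the correction, 0.36 with both, 0.42 with DESeq2's Wald test or size factors and 0.34 without the libraries numbered 1, and that of fatty acid synthesis 0.20 with the correction and 0.20 with both. The difference between cell states gave 8 calls with the block, 17 with DESeq2, 13 with the correction and 35 with both, and that between cell lines 0 in the 4 settings run. For cell states the block alone called DDIT3 (adjusted p 0.00466) and HSPA5 (0.00585), and with the correction also INHBE (0.0111), HERPUD1 (0.0345) and ATF4 (0.0357). IMR90 calls were 2 with the block, 3 with the correction and 6 with both. Genes without overlap numbered 98 as counted and 313 after the correction (132 higher, 181 lower), and 114 to 546 with 1 replicate left out. The cause of these changes was not tested.

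With 1 replicate left out, list medians ranged from -0.044 to 0.22 for the COPI subunits, 0.33 to 0.52 for the PERK and ATF4 arm, 0.15 to 0.40 for fatty acid synthesis, -0.062 to 0.23 for lysosome genes, -0.047 to 0.14 for collagens, -0.32 to -0.038 for contractile genes, -0.015 to 0.21 for interferon genes and -0.12 to 0.066 for immediate early genes. Values near 0 changed sign: HSPA5 (-0.067 to 0.17, -0.027 with the correction, -0.017 with the block added and -0.021 with 9 libraries), XBP1 (-0.086 to 0.11), MCM2 (-0.33 to 0.28), FOXM1 (-0.29 to 0.077), CDKN2A (-0.26 to 0.028) and CDKN1A (-0.13 to 0.23, -0.0035 with the block, -0.016 with the correction, -0.013 with both and -0.016 with 9 libraries). Depth limits genes such as WNT7B, with 2 to 4 counts in the knockdown libraries.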

Other observations

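TCEA1, which encodes a transcription elongation factor and is on none of the lists, was picked after its values were seen. Its log2 fold change in growing ER:RAS cells was 0.41 as counted (SE 0.49, adjusted p 1.00, edgeR) and 0.59 after the correction for GC content and length (adjusted p 0.477). The corrected levels were 17.7, 18.5 and 21.02 CPM in the control libraries, 29.3, 26.1 and 29.5 with shRNA 1, and 30.6, 24.7 and 31.9 with shRNA 2, so that the groups did not overlap. In IMR90 cells the corrected log2 fold change was 0.55 and passed the test (adjusted p 0.00915, edgeR). TCEA1 and COPB1 passed with the correction in IMR90 and not in the same fit of ER:RAS cells, where both passed in another setting, given above. The test of the difference between the lines called neither gene.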
